A study of Mus with 12 samples.

Results

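The unfolded protein response genes described here are Hspa5, Hsp90b1, Pdia4, Calr, Xbp1, Ern1, Dnajb9, Atf4, Ddit3 and Atf3, 10 genes taken by name for their place in the response of a cell to unfolded protein in its endoplasmic reticulum (ER). Each of the 10 had 1 row with an Ensembl transcript among the 87235 rows of the E0.5 and E4.5 gene table and 1 among the 40787 rows of the E15.5 and E18.5 table, and all 10 passed the filter on low values in both. RNA was sequenced from the whole uterus of pregnant ICR mice, an outbred strain, given in the design text as 8 weeks old, on E0.5, E4.5, E15.5 or E18.5, the number being the days after mating. There were 3 mice a day, 1 library a mouse, and no allele or agent is named for any of them. The study set E0.5 against E4.5 as the days around implantation and E18.5 against E15.5 as the days before labor, days between which the level of progesterone changes.

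The ER is where secreted and membrane proteins are folded. When unfolded protein builds up there, 3 sensors in the ER membrane, IRE1 (gene Ern1), PERK and ATF6, send a signal to the nucleus that raises chaperones, the proteins that help others fold, and the machinery that clears failed proteins. IRE1 splices the messenger RNA of Xbp1 into the form that encodes an active transcription factor, and PERK slows translation in general while translation of Atf4 rises, with Ddit3 (CHOP) and Atf3 further along that arm. The chaperones are also made in quantity by tissues that secrete much protein, as the uterine glands and the decidua do. Expression was read per gene, so spliced and unspliced Xbp1 were not told apart and no protein was measured.

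All 10 rows overlap the RefSeq gene of the same name in GRCm38, Hspa5 for example on chromosome 2 from 34771970 to 34777547, Xbp1 on chromosome 11 from 5520659 to 5525893 and Ddit3 on chromosome 10 from 127290667 to 127296288. Some rows hold more than the gene itself. The Hsp90b1 row is merged with Gm15344 and Gm25745, that of Pdia4 with Mir704 and, in the E15.5 and E18.5 table, that of Ern1 with Icam2, an adhesion molecule of endothelial cells, so the values of these rows are not those of the gene alone. What the members share beyond the rule is an annotation: 8 of the 10, all but Atf3 and Dnajb9, carry the KEGG term for protein processing in the ER in the deposited tables.

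The libraries of E0.5 and E4.5 held 58020989 to 70906881 counts, and the number of counts behind the values of the other 6 is not known here, since their table gives FPKM (fragments scaled to transcript length and to library size) without counts. E4.5 replicate 3 stands apart. Across 11682 protein-coding rows its Spearman correlation with the other E4.5 libraries was 0.720 and 0.711, against 0.928 between those and 0.911 to 0.930 within E0.5. A list of 10 genes of the ovary summed to 1789 FPKM in it, with none of the 10 at 0, and to between 5.64 and 11.7 FPKM in the other 5, where 2 to 4 of the 10 were at 0. Among them Hsd3b1, an enzyme of steroid synthesis, was at 519 FPKM in that library and at or under 0.0541 FPKM elsewhere. The list of 5 oviduct genes was at 91.7 FPKM there against 3.87 to 19.2 FPKM, and that of 8 smooth muscle genes at 213 FPKM against 810 to 1229 FPKM. Values of the 10 genes at E0.5 against E4.5 are therefore given with and without this library, and for genes of the lists where leaving it out changes an adjusted call. Among the E15.5 libraries replicate 1 had the lowest correlations (0.905 and 0.878 against 0.962), and its Prl8a2, a prolactin family gene of the decidua, was at 1342 FPKM against 72.2 and 86.0 FPKM in the others. Smooth muscle and uterine epithelium lists had no gene at 0 in any of the 12 libraries.

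**Figure D1:**
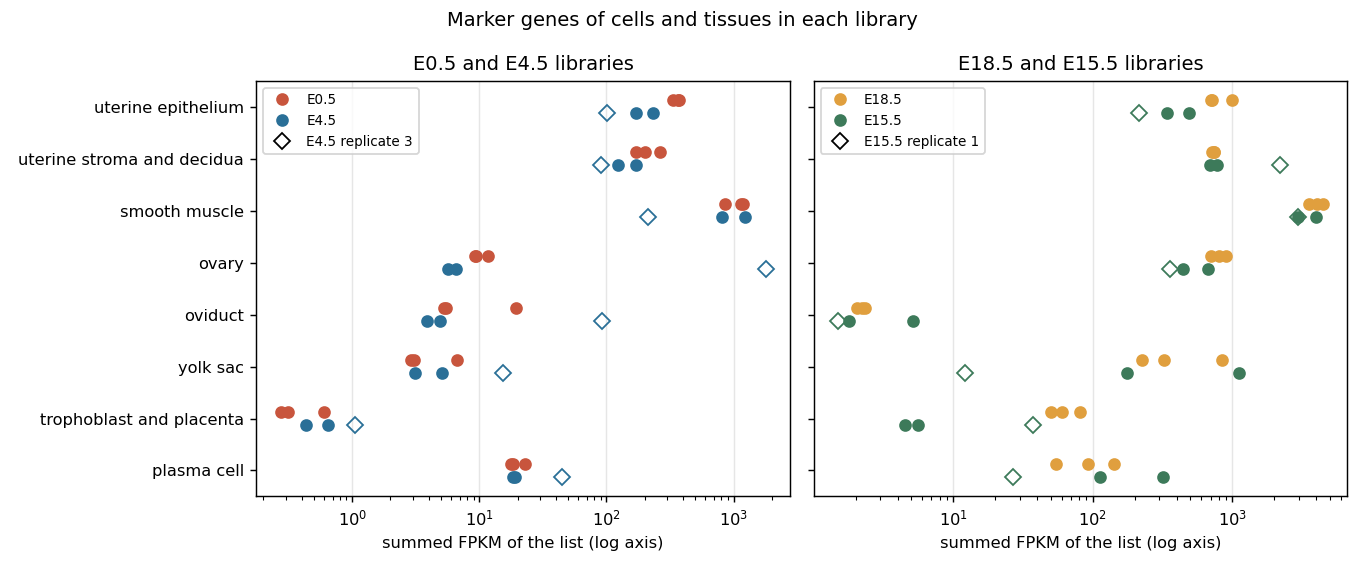
Summed FPKM (log axis) of 8 lists of marker genes in each library, with 1 point a library, the E0.5 and E4.5 libraries on the left and those of E18.5 and E15.5 on the right. E4.5 replicate 3, drawn as an open diamond, lies at 1789 FPKM on the ovary list, where the other 5 libraries of its table are at or under 11.7 FPKM.

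On E4.5, E15.5 and E18.5 the 4 genes with the highest means were the chaperones and folding enzymes Calr, Pdia4, Hspa5 and Hsp90b1, while on E0.5 Atf4 ranked above Hspa5 and Hsp90b1. Calr, which encodes calreticulin, a calcium-binding chaperone of glycoproteins, had the highest mean on each of the 4 days, at 35.3 ± 9.53 FPKM on E0.5, 71.0 ± 1.19 on E4.5, 254 ± 19.6 on E15.5 and 233 ± 2.86 on E18.5 (SD, n = 3 a day). The tables of the early and the late days were normalized separately, so the step between E4.5 and E15.5 is not a test of anything. At E0.5 the order of mean FPKM was Calr, Pdia4, Atf4, Hsp90b1, Hspa5, Xbp1, Dnajb9, Atf3, Ern1 and Ddit3, and the neighbours from Hsp90b1 to Xbp1 and from Dnajb9 to Ern1 overlapped in their libraries. At E4.5 Hspa5 and Hsp90b1 stood above Atf4 with no overlap, in the order Calr, Pdia4, Hspa5, Hsp90b1, Xbp1, Atf4, Dnajb9, Ern1, Ddit3 and Atf3, in which Xbp1 overlapped with Atf4 and, through replicate 3, with Dnajb9. On both late days the 4 genes with the highest means were Calr, Hsp90b1, Hspa5 and Pdia4, and the last 3 of these overlapped at E15.5. Atf3 and Ddit3, the stress-induced transcription factors at the end of the PERK arm, had the lowest means on E4.5, E15.5 and E18.5. At E18.5 these 2 genes overlapped, at 4.73 ± 0.963 FPKM for Atf3 and 4.25 ± 0.643 FPKM for Ddit3.

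**Figure D2:**
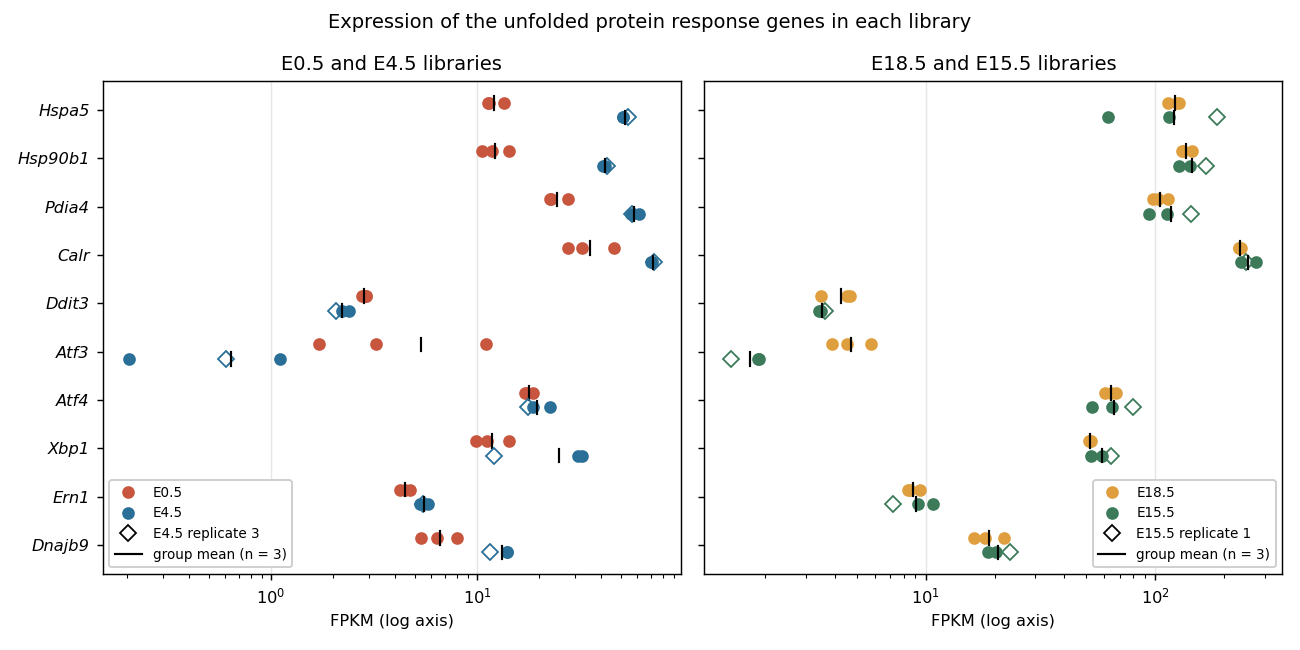
FPKM (log axis) of the 10 genes, 1 point a library and 1 bar for the mean of the 3 libraries of a day, with the E0.5 and E4.5 libraries on the left and those of E18.5 and E15.5 on the right. On the left the Hspa5 points of E0.5 end at 13.5 FPKM and those of E4.5 start at 50.8 FPKM, while on the right the E15.5 points of Hspa5 run from 62.2 to 186 FPKM around those of E18.5.

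Between E0.5 and E4.5 the question is which of these genes differ in the uterus before and at the time of implantation. Hspa5, Hsp90b1, Pdia4 and Xbp1 were lower at E0.5 and Atf3 was higher by the criterion that the study states, which asks for a doubling or a halving (1 on the log2 scale) and an unadjusted p under 0.05, here from edgeR's quasi-likelihood test. That is 4 of 10 members lower, where 5.82% of the 59732 rows tested were lower, and 1 of 10 higher, where 6.37% were higher. The median log2 fold change of E0.5 relative to E4.5 was −0.997 over the members, −0.01 over all rows tested and −0.14 over protein-coding rows of at least 1 FPKM. Past a Benjamini-Hochberg adjusted p of 0.05 in edgeR's test there were 3 members, Hspa5, Hsp90b1 and Pdia4, where 1.22% of all rows passed, and 7 members had an unadjusted p under 0.05, where 17.0% of all rows did. The libraries of E0.5 and E4.5 did not overlap for 8 members, all but Atf4 and Xbp1, where 25.2% of all rows did not overlap.

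Hspa5 encodes BiP, the main HSP70 chaperone of the ER, which also holds the 3 sensors inactive while bound to them. It was at 11.4, 11.4 and 13.5 FPKM in the E0.5 libraries and at 51.1, 50.8 and 54.0 FPKM in those of E4.5. Each E4.5 library was thus far above every E0.5 library, E4.5 replicate 3 included. The log2 fold change of E0.5 relative to E4.5 was −2.09 (standard error, SE, 0.158, 95% interval −2.47 to −1.71, adjusted p = 0.00839 in edgeR's test), a level 4.26-fold higher at E4.5. Without E4.5 replicate 3 it was −2.09 (adjusted p = 0.00154). Over all 6 ways of leaving out 1 library it lay between −2.19 and −2.03.

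Hsp90b1 encodes GRP94, the HSP90 chaperone of the ER. Its row was at 10.6, 11.8 and 14.2 FPKM in the E0.5 libraries and at 40.7, 41.8 and 42.9 FPKM in those of E4.5, again without overlap. This is a log2 fold change of −1.76 (SE 0.176, adjusted p = 0.0173 in edgeR's test), a level 3.40-fold higher at E4.5. Pdia4 encodes a protein disulfide isomerase, an enzyme that forms the disulfide bonds of proteins as they fold. Its row was at 22.5, 23.0 and 27.7 FPKM in the E0.5 libraries and at 56.0, 61.3 and 56.3 FPKM in those of E4.5. The groups did not overlap, and the log2 fold change was −1.24 (SE 0.159, adjusted p = 0.0276 in edgeR's test), 2.36-fold higher at E4.5. Without E4.5 replicate 3 the values were −1.77 for Hsp90b1 (adjusted p = 0.00351) and −1.28 for Pdia4 (adjusted p = 0.00758).

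The adjusted calls changed with single libraries. The number of members with an adjusted p under 0.05 in edgeR's test was 0 without any 1 of the E0.5 libraries or without E4.5 replicate 1, 1 without E4.5 replicate 2 and 5 without E4.5 replicate 3, where Xbp1 and Dnajb9 joined the 3 chaperones. Hspa5, Hsp90b1 and Pdia4 met the study's criterion in each of these 6 fits.

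Calr lay just short of the fold threshold. It was at 27.7, 32.2 and 46.0 FPKM in the E0.5 libraries and at 70.1, 70.6 and 72.4 FPKM in those of E4.5, so that the E0.5 libraries spread more than those of E4.5 and the days did not overlap. Its log2 fold change was −0.997 (95% interval −1.53 to −0.47, unadjusted p = 0.00306, adjusted p = 0.0894 in edgeR's test). Without E4.5 replicate 3 it was −1.01 (adjusted p = 0.0547) and met the criterion. Dnajb9, which encodes ERdj4, an ER co-chaperone of BiP and a textbook target of spliced XBP1, was likewise at the edge. It was at 8.00, 5.37 and 6.35 FPKM in the E0.5 libraries and at 13.96, 13.98 and 11.5 FPKM in those of E4.5. No E0.5 library of Dnajb9 reached the lowest of E4.5, and its log2 fold change was also −0.997 (95% interval −1.48 to −0.51, adjusted p = 0.0754 in edgeR's test), or −1.11 without E4.5 replicate 3 (adjusted p = 0.0215).

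The chaperones can also be set against each other within a library. The ratio of Hspa5 to Calr within a library, which no scaling between libraries can alter, was 0.412, 0.352 and 0.295 at E0.5 and 0.729, 0.719 and 0.746 at E4.5. The ratio of Hspa5 to Hsp90b1 was 1.08, 0.960 and 0.952 at E0.5 and 1.25, 1.21 and 1.26 at E4.5. Both ratios were higher in every E4.5 library than in any of E0.5. A two-sided exact permutation test gave p = 0.1 for either ratio, the smallest that 3 against 3 allow, and 0.25 after adjustment over the 10 tests of 5 ratios in the 2 comparisons. The ratio of Pdia4 to Calr overlapped between the days, at 0.601 to 0.812 for E0.5 and 0.778 to 0.867 for E4.5.

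In the IRE1 arm, Xbp1 met the criterion and Ern1 did not. Xbp1 was at 9.91, 14.2 and 11.2 FPKM in the E0.5 libraries and at 32.2, 30.8 and 12.1 FPKM in those of E4.5. The low value at E4.5 is that of replicate 3, which fell within the range of E0.5, so the groups overlapped. The log2 fold change of −1.09 (SE 0.401, unadjusted p = 0.0309, adjusted p = 0.242 in edgeR's test) met the criterion. Without E4.5 replicate 3 it was −1.43 (adjusted p = 0.00989). The criterion was met in 2 of the 6 fits without 1 library, that one and the fit without E0.5 replicate 2 (−1.25), and missed without E0.5 replicate 1 (−0.96), E0.5 replicate 3 (−1.06), E4.5 replicate 1 (−0.82) or E4.5 replicate 2 (−0.94). It was also missed by limma on log2(FPKM + 0.1) (−0.97), in which Calr (−1.04) and Dnajb9 (−1.004) met it.

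Ern1, which encodes the IRE1 sensor itself, was at 4.24, 4.46 and 4.70 FPKM in the E0.5 libraries and at 5.30, 5.79 and 5.43 FPKM in those of E4.5. These narrow groups did not overlap, yet the difference was small, a log2 fold change of −0.29 (95% interval −0.63 to 0.05, adjusted p = 0.344 in edgeR's test) that passed neither threshold, and −0.33 without E4.5 replicate 3 (adjusted p = 0.244).

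In the PERK arm, Atf4 was at 17.4, 18.8 and 17.2 FPKM in the E0.5 libraries and at 22.5, 18.6 and 17.6 FPKM in those of E4.5. The days overlapped and the log2 fold change was −0.14 (95% interval −0.57 to 0.29, adjusted p = 0.740 in edgeR's test), an interval that does not reach 1 on either side. It was −0.23 without E4.5 replicate 3 (adjusted p = 0.499 in edgeR's test). ATF4 protein is known to be set mainly at translation, which these data do not measure. Ddit3, which encodes CHOP, a transcription factor linked to cell death under lasting ER stress, was at 2.88, 2.88 and 2.76 FPKM in the E0.5 libraries and at 2.38, 2.20 and 2.06 FPKM in those of E4.5. Its libraries did not overlap, with E0.5 above E4.5, the opposite order to the chaperones. For Ddit3 the fitted log2 fold change was 0.37 (95% interval −0.05 to 0.79, adjusted p = 0.338 in edgeR's test) and 0.29 without E4.5 replicate 3. The ratio of Hspa5 to Ddit3 was 3.95, 3.94 and 4.90 at E0.5 and 21.5, 23.1 and 26.3 at E4.5.

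Atf3, a transcription factor that many stresses and growth signals induce within a short time, had the largest fitted fold change with all 6 libraries and also spread most. It had 2033, 517 and 322 counts at E0.5, or 11.1, 3.24 and 1.71 FPKM, and 38, 196 and 106 counts at E4.5, or 0.204, 1.11 and 0.605 FPKM. All E0.5 libraries were above all of E4.5, but within a day the highest library was 6.45 times the lowest at E0.5 and 5.45 times at E4.5. With a log2 fold change of 3.08 (SE 0.859, 95% interval 1.03 to 5.12, unadjusted p = 0.00945, adjusted p = 0.143 in edgeR's test) Atf3 met the criterion, and without E4.5 replicate 3 it was at 3.01 (adjusted p = 0.14). Without E0.5 replicate 1, the library with the 2033 counts, it was 1.99 (adjusted p = 0.340), less in size than the −2.03 of Hspa5 in the same fit, and the value was between 1.99 and 3.73 over the 6 fits without 1 library, each of which met the criterion. That library also had the highest sum of the 5 oviduct genes at E0.5, 19.2 FPKM against 5.30 and 5.49 FPKM, and the part of this in the Atf3 value was not tested.

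**Figure D3:**
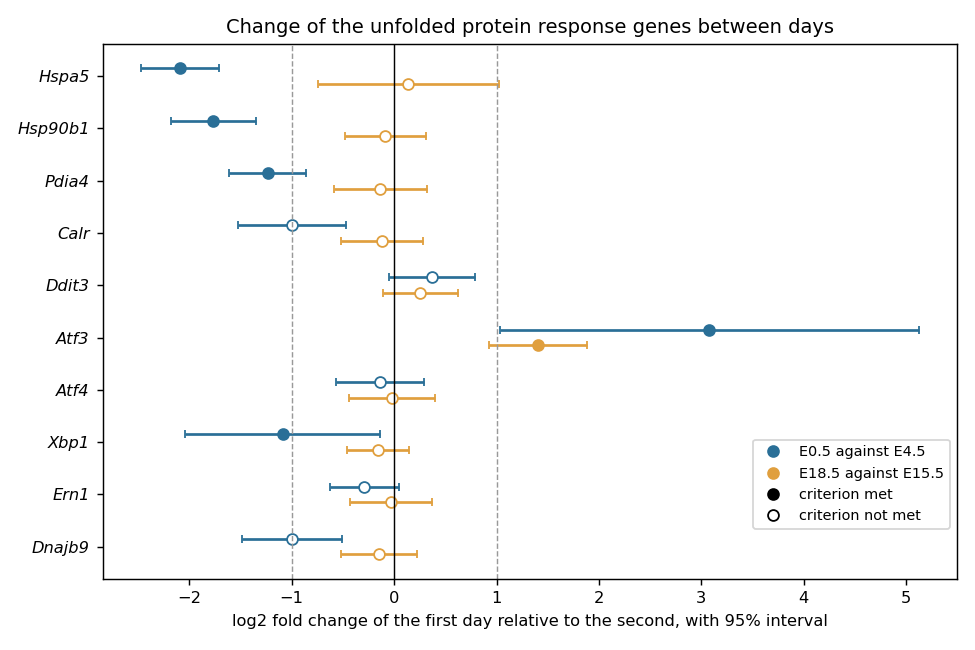
Log2 fold change with its 95% interval for the 10 genes, E0.5 relative to E4.5 and E18.5 relative to E15.5. Filled points meet the criterion, and dashed lines mark a log2 fold change of 1 in either direction. Hspa5 lies at −2.09 in the first comparison and at 0.14 in the second, while Atf3 lies to the right of 1 in both.

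Whole uterus was sampled, so fewer cells of a type and less RNA per cell cannot be told apart in these values. The list of 11 uterine epithelium genes, none at 0 in any library, summed to 331 to 374 FPKM at E0.5 and to 102 to 233 FPKM at E4.5, the opposite order to the chaperones. Krt19, Krt8 and Elf3 were at 47.5 to 75.6 FPKM at E0.5 and at 3.08 to 22.1 FPKM at E4.5. Epcam, Cdh1 and Esrp1 were also lower at E4.5 with no overlap. Krt7, Krt18, Foxa2, Cldn3 and Cldn4 overlapped between the days, with E4.5 replicate 3 the lowest for each. Cldn4 was at 14.1 and 13.1 FPKM in E4.5 replicates 1 and 2, above all its E0.5 libraries. The list of 10 stroma and decidua genes, with Prl8a2 at 0 in all but E4.5 replicate 1, summed to 171 to 265 FPKM at E0.5 and to 90.3 to 169.6 FPKM at E4.5. Its genes differed among themselves. Dcn, which took the largest part of the sum in 5 of the 6 libraries, was at 70.9 to 116 FPKM at E0.5 and 22.1 to 40.7 FPKM at E4.5, and Alpl and Lum were lower at E4.5 too. Bmp2, a signal of the decidual reaction, was at 0.484 to 0.580 FPKM at E0.5 and 3.97 to 8.25 FPKM at E4.5. Hand2, a transcription factor of the stroma, was at 1.67 to 2.75 FPKM at E0.5 and at 22.0, 20.6 and 1.13 FPKM at E4.5, and the Hoxa10 row was likewise higher in E4.5 replicates 1 and 2 and lowest in replicate 3. The list of 7 macrophage genes was at 86.5 to 99.6 FPKM at E0.5 and 46.4 to 67.1 FPKM at E4.5. The list of 9 plasma cell genes, cells whose ER is rich in these chaperones, was at 17.9 to 23.0 FPKM in the E0.5 libraries and at 19.0, 18.49 and 44.6 FPKM in those of E4.5, with the high value in replicate 3. Among the plasma cell genes Sdc1 took the largest part of the sum in each library, at 28.5 FPKM in E4.5 replicate 3. The others differed among themselves. Ighm was lowest in that replicate, at 0.927 FPKM, and the Igkc row was highest there, at 4.98 FPKM. The part of cell composition in the changes was not tested.

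Between E18.5 and E15.5, 1 member met the criterion, Atf3, which was higher at E18.5, where 3.11% of the 30928 rows tested were higher. None of the 10 was lower by the criterion, where 2.93% of rows were. By limma's test 0 members had an adjusted p under 0.05, where 0.0259% of all rows passed, and 1 member had an unadjusted p under 0.05, where 12.2% of all rows did. The libraries of the days did not overlap for 2 members, Calr and Atf3, where 19.9% of all rows did not overlap. The median log2 fold change of E18.5 relative to E15.5 was −0.06 over the members and 0.02 over all rows tested. These fold changes are on the log2(FPKM + 0.1) scale.

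Atf3 was at 3.89, 5.78 and 4.52 FPKM at E18.5 and at 1.41, 1.87 and 1.85 FPKM at E15.5. Every E18.5 library was above every E15.5 library, and the spread within a day was narrow compared with the early days. The log2 fold change was 1.41 (SE 0.202, 95% interval 0.93 to 1.89, unadjusted p = 0.00024, adjusted p = 0.0911 in limma's test), a level 2.65-fold higher at E18.5. Over the 6 fits without 1 library it lay between 1.25 and 1.53, with the criterion met in each, and without E15.5 replicate 1 it was 1.28.

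None of the chaperones met the criterion on the late days. Hspa5 was at 113, 127 and 124 FPKM at E18.5 and at 186, 115 and 62.2 FPKM at E15.5, a 2.99-fold range within E15.5 that encloses all 3 E18.5 libraries. The log2 fold change was 0.14 (95% interval −0.75 to 1.03, adjusted p = 0.902 in limma's test), which leaves room for a change in either direction. Without E15.5 replicate 1 it was 0.52 (adjusted p = 0.572) and without E15.5 replicate 3 it was −0.27. The 3 E15.5 libraries also differed in their markers. In the order 1, 2 and 3 of the replicates, Prl8a2 was at 1342, 72.2 and 86.0 FPKM, a list of 10 yolk sac genes at 12.2, 177 and 1109 FPKM and the plasma cell list at 26.7, 112 and 319 FPKM, and their part in the spread of Hspa5 was not tested.

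Hsp90b1 was at 131, 145 and 132 FPKM at E18.5 and 166, 141 and 127 FPKM at E15.5. Pdia4 was at 97.6, 114 and 103 FPKM at E18.5 and 143, 113 and 93.8 FPKM at E15.5. Replicate 1 was thus the highest E15.5 library and replicate 3 the lowest for Hspa5, Hsp90b1 and Pdia4 alike. In log2 fold change this is −0.08 for Hsp90b1 (95% interval −0.48 to 0.31) and −0.14 for Pdia4 (95% interval −0.59 to 0.32). Calr was at 232, 237 and 232 FPKM at E18.5 and 249, 275 and 237 FPKM at E15.5, and its lowest E15.5 library, at 237.2 FPKM, stood barely above its highest of E18.5, at 236.7 FPKM. Its log2 fold change of −0.12 had a 95% interval of −0.52 to 0.28.

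Of the IRE1 arm, Xbp1 was at 51.6, 52.2 and 52.6 FPKM at E18.5 and at 64.0, 52.5 and 58.7 FPKM at E15.5 (log2 fold change −0.16, 95% interval −0.46 to 0.14). Its 3 E18.5 libraries were the closest of any member on any day, the highest being 1.02 times the lowest, as for Calr on that day. Dnajb9 was at 18.2, 22.0 and 16.3 FPKM at E18.5 and at 23.3, 18.7 and 20.1 FPKM at E15.5 (log2 fold change −0.14, 95% interval −0.51 to 0.23). The merged row of Ern1 and Icam2 was at 8.56, 8.32 and 9.41 FPKM at E18.5 and at 7.16, 9.27 and 10.7 FPKM at E15.5, with overlap.

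Of the PERK arm, Atf4 was at 67.6, 60.6 and 64.0 FPKM at E18.5 and at 80.1, 53.1 and 64.5 FPKM at E15.5 (log2 fold change −0.02, 95% interval −0.44 to 0.40). Ddit3 was at 4.55, 3.51 and 4.68 FPKM at E18.5 and at 3.62, 3.43 and 3.48 FPKM at E15.5, and the lowest E18.5 library lay between those of E15.5. Its log2 fold change was 0.26 (95% interval −0.11 to 0.62, adjusted p = 0.546 in limma's test). Epithelium genes were higher at E18.5 in sum, at 700.0 to 997 FPKM against 214 to 487 FPKM at E15.5, and trophoblast and placenta genes were at 50.1 to 81.4 FPKM against 4.55 to 37.2 FPKM. Their part in these values was not tested.

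Whether the early and the late difference of a gene are themselves different was asked of all 12 libraries in 1 limma fit, by taking the log2 fold change of E18.5 relative to E15.5 from that of E0.5 relative to E4.5. The difference passed an adjusted p of 0.05 for 3 of the 10 members, where 2.64% of the 22056 pairs of rows tested passed. It was −2.24 for Hspa5 (SE 0.431, adjusted p = 0.0248 in limma's test), −1.69 for Hsp90b1 (adjusted p = 0.00572) and −1.11 for Pdia4 (adjusted p = 0.0420). All 3 were lower at E0.5 than at E4.5, while between the late days their log2 fold changes were 0.14, −0.08 and −0.14. Calr at −0.92 (adjusted p = 0.105), Dnajb9 at −0.86 (adjusted p = 0.101) and Xbp1 at −0.81 (adjusted p = 0.373) did not pass, and without E4.5 replicate 3 Xbp1 was at −1.27 (adjusted p = 0.0102 in limma's test). For Atf3, which met the criterion in both comparisons, the difference was 1.27 with a 95% interval of −0.61 to 3.15, so that these libraries do not show whether its early and late changes differ in size. Leaving out 1 library moved the number of members past the adjusted p to 1 without E0.5 replicate 1 or 2, any 1 of the E18.5 libraries or E15.5 replicate 2. It was 2 without E4.5 replicate 1 or 2 or E15.5 replicate 3, and 4 without E4.5 replicate 3.

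**Figure D4:**
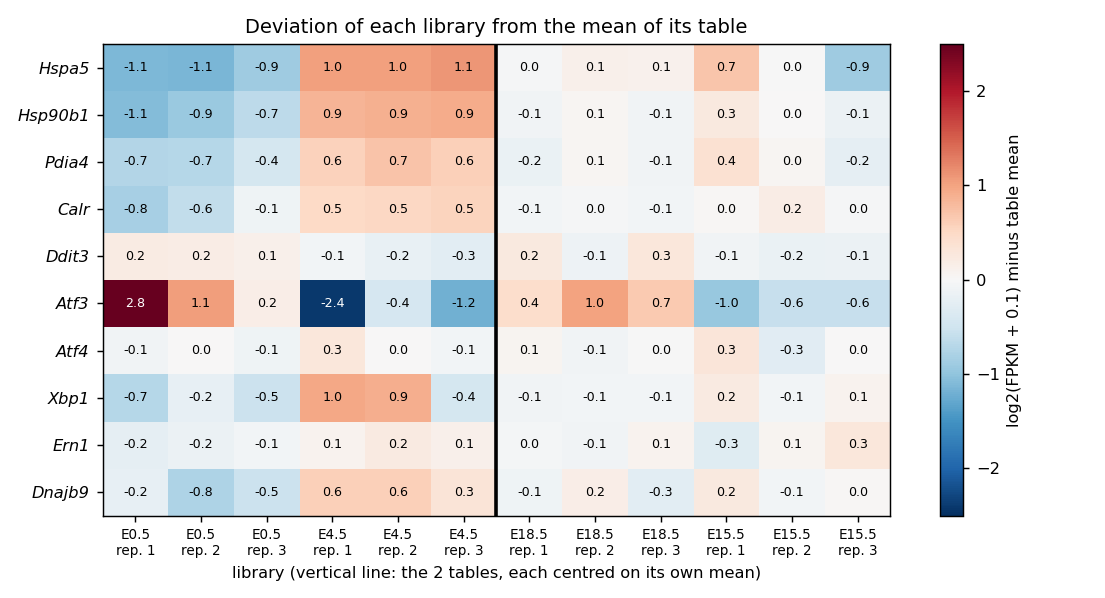
Log2(FPKM + 0.1) of each gene in each library minus the mean over the 6 libraries of its table, with E0.5 and E4.5 to the left of the line and E18.5 and E15.5 to the right. Red is above and blue below the mean. The chaperones are blue in the E0.5 and red in the E4.5 libraries, Xbp1 is blue in E4.5 replicate 3, and Atf3 has the opposite colors.

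The genes whose profile over the 12 libraries was most like that of Hspa5 were found among 10850 other pairs of rows, by the root mean square difference of the values drawn in the map of deviations. The nearest were H3c3 (0.238), a gene of histone H3, Racgap1 (0.259), which acts in cytokinesis, Creld2 (0.281), an ER protein, Hsp90b1 (0.286) and Cdk1 (0.288), the kinase of mitotic entry, where the median pair was at 0.830. Among the members, Pdia4 ranked 40, Calr 218, Dnajb9 273 and Xbp1 984, while Ddit3 ranked 7620 and Atf3 10753 of these pairs. The nearest to Ddit3 were Ssh3 (0.0910), Fhod1 (0.106), Josd2 (0.109), Prdm4 (0.112) and Tmem176b (0.117), with a median pair at 0.365. Ddit3 varied little, so small differences are common for it. These ranks describe 12 libraries whose differences between days dominate, and carry no test.

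The other genes of the response were followed in 7 lists without the 10 members. Their counts at E0.5 against E4.5 are to be read against all rows tested, of which 5.82% were lower and 6.37% higher by the criterion, 17.0% had an unadjusted p under 0.05 and 1.22% passed the adjusted p. In the list of 39 other ER chaperones and folding enzymes, 10 were lower and 0 higher at E0.5 than at E4.5 by the criterion, the median log2 fold change was −0.62, and 33 had a value below 0. Past the adjusted p in edgeR's test were 5. Without E0.5 replicate 2, or with a block for the replicate number, 0 of all rows tested passed it. No adjusted call of these lists at the early days held in those fits. Sdf2l1, an ER protein that works with BiP and its co-chaperones, was at 1.58, 2.29 and 2.94 FPKM in the E0.5 libraries and at 15.8, 15.2 and 9.86 FPKM in those of E4.5. Its log2 fold change of −2.57 (SE 0.343, adjusted p = 0.0303 in edgeR's test) was farther from 0 than that of any of the 10 genes but Atf3. The row of Nucb2, a calcium-binding protein, merged with Gm45151, was at 1.04, 0.551 and 0.928 FPKM against 3.61, 4.67 and 1.54 FPKM (−1.96, adjusted p = 0.0958, or −2.31 with 0.00667 without E4.5 replicate 3). Without E4.5 replicate 3 the list held 11 lower and 0 higher rows.

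In the list of ER-associated degradation, the export of failed proteins to the proteasome, 23 of 28 rows were below 0, with a median of −0.38. At an unadjusted p under 0.05 in edgeR's test 11 were lower and 0 higher, where 17.0% of all rows were under it. By the criterion 2 were lower at E0.5, a share near that over all rows (5.82%), and 0 were higher. They were Derl3, a channel component that plasma cells also express, at 0.705, 0.735 and 0.905 FPKM against 1.63, 1.88 and 3.27 FPKM (−1.49, adjusted p = 0.0915 in edgeR's test), and Selenos, a selenoprotein of the ER membrane (−1.24, adjusted p = 0.0689, or −1.17 with 0.0485 without E4.5 replicate 3). Of 49 rows of the translocon, through which new proteins enter the ER, and of transport from ER to Golgi, 6 were lower (5.82% of all rows were), 0 higher and 46 below 0, with a median of −0.44. The cargo receptor Lman1 was at 5.51, 4.77 and 6.55 FPKM in the E0.5 libraries and 12.3, 13.7 and 18.8 FPKM in those of E4.5 (−1.39, adjusted p = 0.0385 in edgeR's test). Spcs3, a signal peptidase subunit, had a log2 fold change of −1.31 (adjusted p = 0.155).

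The 23 sensors and regulators tested held 0 rows past the criterion in either direction between E0.5 and E4.5, with 9 at an unadjusted p under 0.05 in edgeR's test (17.0% of all rows), 2 higher and 7 lower, 0 past the adjusted p, and a median of −0.28. Without E0.5 replicate 1, E4.5 replicate 1 or E4.5 replicate 2 this list held 1 row past the criterion. Eif2ak3, which encodes PERK, and Atf6, named here after their values were seen because they are the partners of IRE1, had log2 fold changes of −0.51 (adjusted p = 0.277) and −0.52 (adjusted p = 0.205). Both are on the side of the small change in Ern1.

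Targets of ATF4 and CHOP are genes of amino acid supply and the stress response. Of 42 rows 4 were lower and 2 higher at E0.5 by the criterion, where 5.82% and 6.37% of all rows were. Without E4.5 replicate 3 these were 6 and 5. The median with all libraries was −0.24. At an unadjusted p under 0.05 in edgeR's test 12 were lower and 4 higher, where 17.0% of all rows were under it. Mthfd2, a mitochondrial enzyme of folate metabolism, was lower, at 0.446, 0.515 and 0.361 FPKM against 2.03, 0.6001 and 3.38 FPKM (−2.14, adjusted p = 0.141 in edgeR's test), as was Cbs, of cysteine synthesis (−1.48, adjusted p = 0.112). Stc2, a secreted glycoprotein, was higher, at 5.80, 4.34 and 4.604 FPKM against 1.52, 1.79 and 2.20 FPKM (1.43, adjusted p = 0.0337), as was the row of Cebpg and Gm44836 (1.10, adjusted p = 0.191, or 1.53 with 0.0189 without E4.5 replicate 3), Cebpg being a partner of ATF4 on DNA.

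Outside the ER, 4 of 16 heat shock genes of cytosol and mitochondria were lower at E0.5, where 5.82% of all rows were, and 0 higher (median −0.46), among them Hsph1 (−1.49, adjusted p = 0.0642 in edgeR's test, or −1.31 with 0.0348 without E4.5 replicate 3) and Hspd1, the chaperonin of mitochondria, at 6.42, 6.63 and 6.54 FPKM against 17.1, 14.7 and 23.1 FPKM (−1.47, adjusted p = 0.0310). Immediate early genes, the class to which Atf3 also belongs, had 1 of 19 rows higher and 1 lower, with a median of 0.40, or 0.16 without E4.5 replicate 3. Fos, a subunit of the factor AP-1, was higher at E0.5, at 9.09, 7.53 and 6.05 FPKM against 2.51, 1.66 and 1.91 FPKM (1.89, adjusted p = 0.0353 in edgeR's test). Myc was lower, at 2.89, 2.63 and 3.37 FPKM against 14.1, 14.2 and 3.46 FPKM (−1.84, adjusted p = 0.152, or −2.27 with 0.00196 without E4.5 replicate 3), and like Xbp1 its E4.5 replicate 3 was near the E0.5 libraries.

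**Figure D5:**
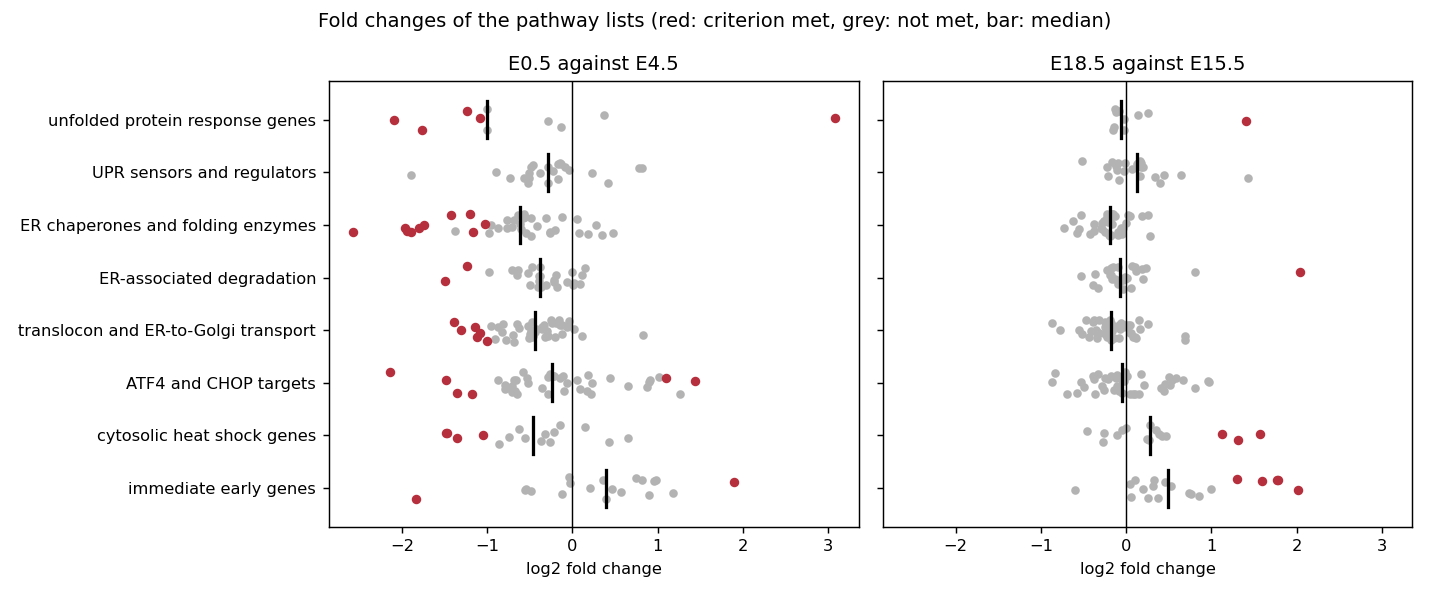
Log2 fold changes of the 10 genes and of the 7 lists, 1 point a row, E0.5 relative to E4.5 on the left and E18.5 relative to E15.5 on the right. Red points meet the criterion and black bars mark medians. The bar of the ER chaperone list lies at −0.62 on the left and at −0.19 on the right, and that of the immediate early genes at 0.40 and 0.49.

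By the criterion, which 3.11% of all rows met as higher and 2.93% as lower at E18.5 than at E15.5, 0 of 38 chaperones and folding enzymes, 0 of 50 translocon and transport rows, 0 of 23 sensors and regulators and 0 of 43 targets of ATF4 and CHOP differed, with 3, 8, 1 and 12 of them at an unadjusted p under 0.05 in limma's test, where 12.2% of all rows were, and 0 past the adjusted p. Their medians were −0.19, −0.18, 0.13 and −0.05. Of 29 rows of ER-associated degradation, the row that holds Syvn1 together with Malat1, Slc25a45, Gm20417 and Gm37376 was higher, at 3.59, 9.13 and 11.6 FPKM against 3.71, 1.17 and 1.09 FPKM, with overlap. A separate row of Syvn1 in the same table did not meet the criterion (log2 fold change 0.19, adjusted p = 0.671 by limma).

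Of 20 immediate early rows 5 were higher and 0 lower at E18.5 by the criterion, where 3.11% and 2.93% of all rows were, with a median of 0.49 and 0 past the adjusted p in limma's test (13 at an unadjusted p under 0.05, where 12.2% of all rows were). Fos was at 18.4, 25.9 and 17.7 FPKM at E18.5 and 5.04, 6.15 and 6.56 FPKM at E15.5 (1.78, adjusted p = 0.0545 in limma's test), and Egr1 at 1.61, 3.38 and 2.16 FPKM against 0.368, 0.512 and 1.06 FPKM (1.78, adjusted p = 0.182). Like Atf3, Fos was higher on E0.5 and on E18.5 with no overlap between the libraries of either pair of days. Of 16 heat shock rows 3 were higher, where 3.11% of all rows were, and 0 lower, with 4 at an unadjusted p under 0.05 (12.2% of all rows) and 0 past the adjusted p, among them Hspa1a at 25.8, 25.1 and 20.6 FPKM against 4.74, 9.88 and 10.7 FPKM (1.57, adjusted p = 0.146) and Hspa1b (1.31, adjusted p = 0.153), near-identical genes whose reads the counting may have shared between them. Without E15.5 replicate 1 this list held 1 row past the criterion.

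The KEGG term that 8 members carry was followed as well, a list taken from the tables after values had been seen. Of 147 other rows with the term, 13 were lower and 1 higher at E0.5 than at E4.5 by the criterion, where 5.82% and 6.37% of all rows were, 117 had a log2 fold change below 0, the median was −0.33 and 7 passed the adjusted p in edgeR's test. Without E4.5 replicate 3 it was 14 lower and 1 higher with a median of −0.28. Between E18.5 and E15.5, 3 of 148 were higher and 1 lower, where 3.11% and 2.93% of all rows were, 76 were below 0 and the median was −0.01 (0 past the adjusted p in limma's test). Without E15.5 replicate 1 these were 1 and 1.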

How the data were processed

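Uteri of 12 ICR mice, 3 a day, were sequenced by the authors, and 1 table of FPKM values was deposited by the authors for each pair of days. The table of E0.5 and E4.5 also holds deposited counts, whole numbers whose counting tool is not given in the sources used here. The methods name Cutadapt, Bowtie2, Tophat2, StringTie and Ballgown after rRNA depletion, while the submitters' processing notes name HISAT2 2.0, StringTie 1.3.0 and Bowtie 0.12.2 and the labels poly(A) selection. The notes list mm8 and mm10, and the positions match GRCm38. Strand-specific counting is not stated, so reads of overlapping genes may be mixed. The value 0.0001 of the first table was set back to 0. Assembled loci with an ID and no gene name took 1.02% to 1.86% of counts and were tested as rows of their own.

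A row was fitted where its 6 libraries averaged 0.1 FPKM or more, those of E0.5 and E4.5 with edgeR 4.0.16 (TMM factors, quasi-likelihood) on counts, and those of E18.5 and E15.5, where there are no counts, with limma 3.58.1 on log2(FPKM + 0.1) with a mean-variance trend (R 4.3.3). The difference between the pairs of days was fitted with limma on rows paired by shared Ensembl transcripts. Adjusted p-values use Benjamini-Hochberg over all rows of a fit. The tests rest on the variance between 3 mice a day, drawn toward a trend over all rows. The fit of the difference pools this variance over all days. The tests were tested on simulated data. The genes and lists were chosen with earlier results of these data known. Named are the 10 genes, up to 2 rows per list, direction and comparison with the largest fold change among rows of at least 1 FPKM that meet the criterion, and the 5 nearest profiles to Hspa5 and Ddit3. Alternatives were DESeq2 1.42.0, upper-quartile factors, limma on the early days, filters of none and 1 FPKM, pseudocounts of 1 and 0.01, other scalings, limma without trend, a block for the replicate number and the omission of 1 library at a time. No value column of a sample was left unused. Scripts used Python 3.11.15, pandas 2.3.3, NumPy 2.4.6, SciPy 1.17.1 and matplotlib 3.10.9.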

Additional observations from a re-analysis of the deposited data

Results flagged for a closer look

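The difference between the early and the late fold change passed the adjusted p in limma's test for Hspa5 (−2.24), Hsp90b1 (−1.69) and Pdia4 (−1.11). No cause was tested, and the early and late days differ in the stage of pregnancy, the assembly and the normalization of their tables, which cannot be told apart.

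Rows that carry a member's name but no Ensembl transcript took no part in the comparisons and held signal in the E0.5 and E4.5 table. For Atf3 they reached 1.70 FPKM in one row and 2.06 FPKM in the other, both in E0.5 replicate 1, the library with the highest Atf3. For Xbp1 the row reached 2.27 FPKM, in E4.5 replicate 3, where the main Xbp1 row was the lowest of its day. For Ern1 a row on the opposite strand reached 4.22 FPKM, in E4.5 replicate 2, a level near that of the main Ern1 row, and its log2 fold change was −0.73 (adjusted p = 0.128 in edgeR's test). In the late table, which has no strand column, such rows reached 3.34 FPKM for Calr, in E18.5 replicate 3, and 2.33 and 1.895 FPKM for Ern1, in E15.5 replicates 2 and 1. Outlying single libraries were not tested in groups of 3.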

How the results depend on the processing

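Under every alternative run the number of members by the criterion lay between 4 and 7 at E0.5 against E4.5 (5 as reported) and was 1 at E18.5 against E15.5, with 0 past the adjusted p there. Which members these are changed: with a replicate block Xbp1 missed the criterion (−0.97, unadjusted p = 0.0531 in edgeR's test), and Calr (−1.03) and Dnajb9 (−1.004) met it. The adjusted count of 3 at E0.5 against E4.5 was 6 with DESeq2 and 0 with a replicate block, and 0 to 5 over the fits without 1 library. That of the difference between the pairs of days was 0 with a replicate block and 1 to 4 over the fits without 1 library. Whether the replicate numbers mark a shared batch was not settled. The deviations of same-numbered libraries correlated at −0.162, 0.029 and −0.143 in the early and −0.022, 0.051 and −0.176 in the late table. Those of other-numbered libraries lay between −0.149 and 0.186 in the early and between −0.101 and 0.106 in the late table. With 3 mice a day these correlations cannot decide it, since the deviations within a day depend on each other. Of values that passed no threshold, quantile normalization turned the sign at E18.5 against E15.5 of Hsp90b1 (0.0451), Calr (0.15) and Atf4 (0.0919). Leaving out 1 library turned the sign of Atf4 at the early days (−0.23 to 0.0145), and at the late days of Hspa5 (−0.27 to 0.52), Hsp90b1 (−0.17 to 0.0193), Pdia4 (−0.28 to 0.0219), Atf4 (−0.17 to 0.13) and Ern1 (−0.19 to 0.10). For the difference between the pairs of days it turned Ddit3 (−0.0367 to 0.17) and Atf4 (−0.26 to 0.0351). The cause was not tested. Over all rows, 7284 met the criterion at the early days, 4396 with a minimum of 1 FPKM, and 730 passed the adjusted p, 1126 with that minimum, 5816 with DESeq2, 0 with the block and 0 to 3629 without 1 library. At the late days 1870 met the criterion, 514 with a pseudocount of 1 and 799 with a minimum of 1 FPKM, and 8 passed the adjusted p, 0 to 28 under the alternatives. The difference passed for 583 pairs, 71 with the block and 193 to 1271 without 1 library. Of the lists, the ATF4 and CHOP targets held 4 to 11 rows (6 as reported) and the immediate early genes 2 to 5 (2) at the early days, and at the late days 0 to 3 (0) and 3 to 7 (5). At the late days the sensors and the translocon list each held 0 or 1 row (0). The TMM factors from protein-coding rows, an alternative chosen after seeing the data, left 5 members. Atf3 had 38 counts in E4.5 replicate 1, a library of 68638099 counts, and the part of depth in its spread was not tested. The late table gives no counts.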
